A study of Mus musculus with 6 samples.

Results

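V-ATPase subunits and lysosomal cathepsins were examined in skull bone (calvaria) of mice aged 2 to 3 days. The genes were chosen by symbol, with earlier results of these data known. They are all genes whose symbol begins with Atp6v0, Atp6v1 or Atp6ap, and all cathepsin genes named by Cts and 1 letter. Ctsk, Ctsg and Atp6v0d2 were left out by name. This gave 41 of the 23358 genes in the deposited table, of which 9 belong to the V0 sector, 13 to the V1 sector, 3 to the accessory proteins and 16 to the cathepsins. RNA-seq was made from 3 libraries labelled as an Ezh2 conditional knockout (cKO) and 3 labelled wild type (WT). Ezh2 methylates histone H3 at lysine 27 within the Polycomb complex PRC2. Osx stands in the genotype labels of both groups and is a former symbol of Sp7, which osteoblast precursors need to mature. A deletion driven by Osx is aimed at the osteoblast lineage. Which cells of these bones lost the gene is not given by the labels and was not measured here. Whether WT mice also carried the Cre transgene, and which part of Ezh2 was deleted, is not given in the sources used here. Before freezing, the bones of both groups spent 20 minutes in an enzyme medium (2 mg/ml of type II collagenase, with 0.005% of trypsin).

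The vacuolar ATPase is a rotary proton pump of lysosomes, endosomes, the Golgi and, in some cells, the plasma membrane. Its V1 sector, on the cytosolic side, hydrolyses ATP at the A and B subunits, and its V0 sector, in the membrane, moves protons through a ring of c subunits past the a subunit. Cathepsins are proteases that work mostly in the acidified lysosome. In bone the pump is best known from the osteoclast, the cell that resorbs bone, which places pumps with the a3 subunit (encoded by Tcirg1) and the d2 subunit (Atp6v0d2) in its ruffled border and secretes cathepsin K (Ctsk). Most of the genes described here are instead expressed in nearly all cells.

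The gene counts summed to between 60449016 and 95439578 per library. Libraries are named by group and label number, WT 14, 27 and 29 and cKO 8, 10 and 37. The labels do not say that the libraries came from separate animals, and a p-value here reflects variation among 6 libraries that may in part be technical. Ezh2 itself lay between 20.4 and 21.7 CPM (counts relative to the TMM-scaled size of the library) in WT and between 19.2 and 20.6 in cKO (adjusted p = 0.507, edgeR), so the counts over the whole gene do not check the labels. All 12 listed osteoblast and bone matrix markers were abundant enough to test, with a summed level between 98988 and 179827 CPM. WT 27 was low in Xist (6.18 CPM, against 1169 to 1396 in the other 5 libraries) and high in Y-linked Ddx3y (59.1 CPM, against 0.129 to 0.26), so that group and sex are not balanced, and the value without WT 27 is given beside each member's call. In cKO 37 the cartilage genes Col2a1 and Acan were low (344 CPM against 1370 to 5935, and 162 CPM against 444 to 764).

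Levels per length were compared in RPKM, as deposited, averaged over all 6 libraries. Of the 25 V-ATPase genes, 16 had a mean of at least 5 RPKM, 1 lay between 1 and 5, and 8 were below 1. Of the 16 cathepsins, 9 had at least 5 RPKM, 2 lay between 1 and 5, and 5 were below 1. Ctsd, the main aspartic protease of the lysosome, was the most abundant member (170 RPKM), followed by the cysteine proteases Ctsb (95.1), Ctsz (78.6) and Ctsl (62.7). Ctsk, which the choice of genes leaves out, stood above all of them at 671 RPKM. Among V-ATPase genes the highest were Atp6v0b (59.1 RPKM), a proteolipid of the membrane ring, the accessory gene Atp6ap1 (58.5), Atp6v0e (58.2), Atp6v1g1 (57.1), Atp6v1b2 (48.5) and Atp6v1e1 (48). The spread between libraries was as large as the steps between these neighbours: in WT, Atp6v0b was 63.4 ± 12.5 RPKM and Atp6ap1 was 62.3 ± 5.57 (SD, n = 3).

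**Figure D1:**
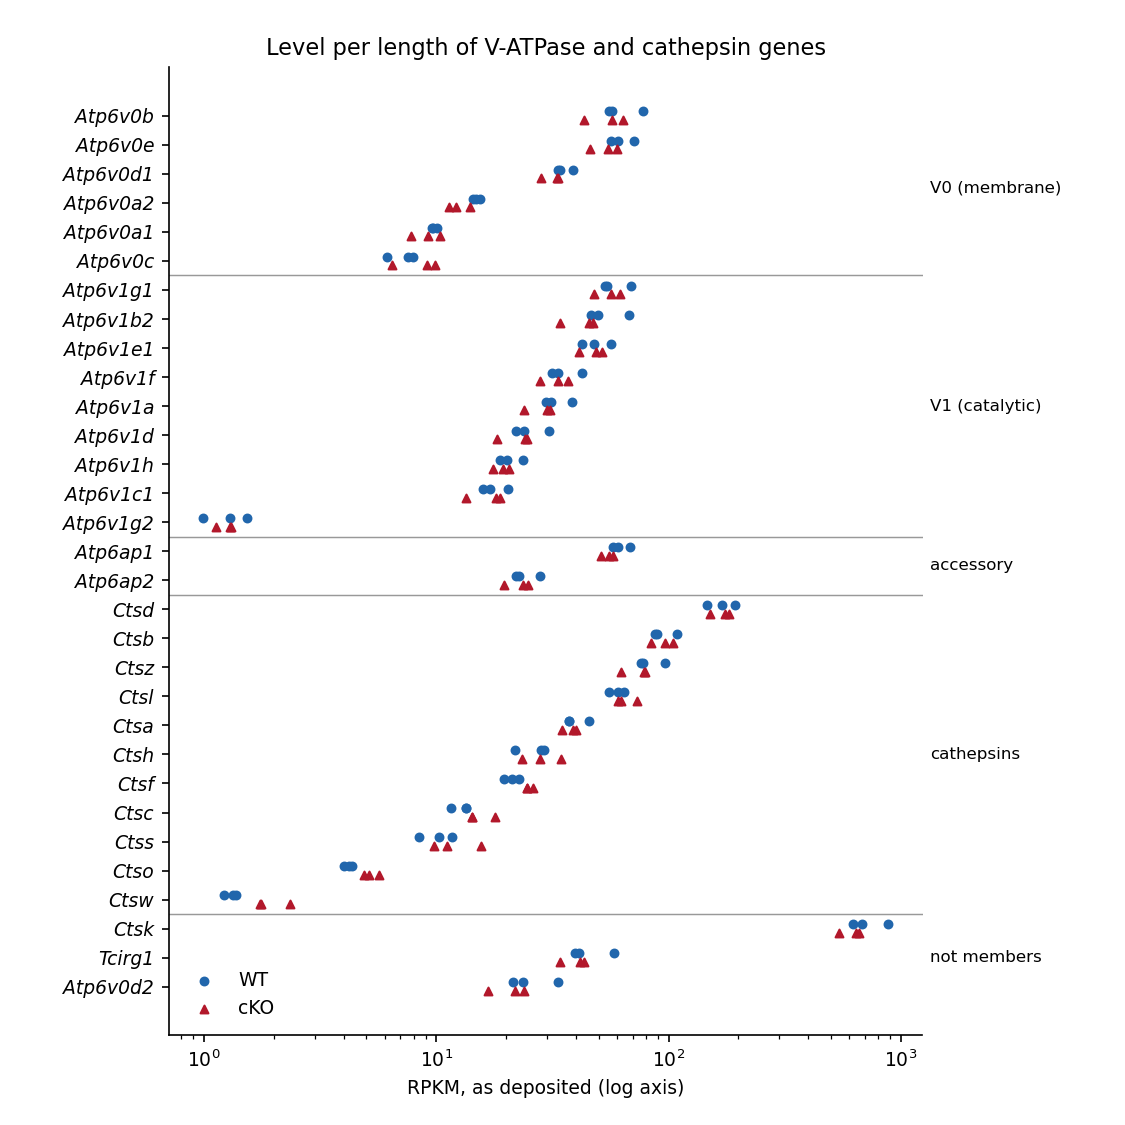
Deposited RPKM (horizontal log axis) of the members with a mean of at least 1 RPKM and of Ctsk, Tcirg1 and Atp6v0d2, with 1 point per library (blue circles WT, red triangles cKO, n = 3 per group), grouped by sector. Ctsd leads the members at 170 RPKM and Ctsk lies above it at 671 RPKM, while the V-ATPase subunits reach a mean of at most 59.1 RPKM (Atp6v0b), with the groups close together.

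Several members known from other tissues were at or near the floor. The placental cathepsins Ctsj, Ctsm, Ctsq and Ctsr had no count in any of the 6 libraries. All deposited counts are even, so the limit that a count of 0 allows was set at 6 counts per library, which is 0.0652 to 0.1 CPM and covers counting error only. Atp6v1b1, the B subunit of kidney and inner ear, had 4 to 18 counts per library, and Atp6v1g3 and Atp6v1e2 had 0 to 2. Ctse, an aspartic protease of the gut and immune system, had 6 to 16 counts, and Atp6v1c2 had 8 to 28. Atp6v0a4, the a subunit of kidney, was above that limit with 40 to 72 counts per library, and averaged 0.197 RPKM. Ctsg, the neutrophil protease left out of the members, had 0 to 4 counts. In all, 32 of the 41 genes passed the filter on low counts and were tested, 20 of the V-ATPase and 12 of the cathepsins.

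For 3 genes the deposited value rests on an unusual gene model, and for some others the counted interval is shortened. It covers 42.5% of the span in GENCODE M21 for Atp6v1g2, 61.4% for Ctsl and 63.8% for Atp6v0e. For Atp6v0e the length for RPKM was 796 bases against 3712 bases of annotated exons. The table places the pseudogene Atp6v0c-ps2 at chromosome 17, 24163865 to 24169395 (mm10), over nearly the same interval as Atp6v0c (24163866 to 24169429), the gene of the c ring itself, whereas GENCODE M21 has it on chromosome 6. Reads in a region shared by 2 genes can be dropped or divided in counting, so the low level of Atp6v0c (7.83 RPKM) is uncertain. The interval used for Atp6v0a2 (chromosome 5, 124712208 to 124722146) covers 10.4% of the span of the gene in GENCODE M21, and its length for RPKM was 1877 bases against 6726 bases of annotated exons. Its value therefore describes the last part of the gene. In GENCODE M21, 13 of the 41 members overlap exons of a gene on the opposite strand, some only outside the counted interval. Inside it the overlap is 774 bases in Ctsb (with Fdft1), 495 and 324 in Ctsa (Pltp and Neurl2) and 243 in Atp6v0b (Gm12841). Ctsd shares 808 bases with Gm49369 on its own strand. The effect of these overlaps on the levels was not tested.

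Promoters of the members were searched for the E-box recognised by TFEB and TFE3, the transcription factors that regulate many lysosomal genes through the element called CLEAR. RefSeq promoters (GRCm38.p6, 250 bases before to 50 after the start site) were found for 30 of the 41 genes. These genes have 34 promoters, since some have more than 1. The core CACGTG, which reads the same on both strands, was in 8 of the 34 promoters (8 genes). It was in 7.15% of all 32851 promoters of that length. The longer TCACGTGA, which contains the core, was in 5 of the 34 promoters (5 genes) and in 0.974% of all promoters. The full CLEAR palindrome, with 1 more base at each end, was in 0 of 34 and in 0.326% of all. A match is a run of letters and not a site shown to be bound. The windows of 30 bases around TCACGTGA are printed below in the direction of transcription, with the match in capitals, because they are shared by a V1 catalytic subunit, V0 subunits and cathepsins.
Atp6v1a (chr16:44139373-44139402, minus strand): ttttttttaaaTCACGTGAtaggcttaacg
Atp6v0d1 (chr8:105566050-105566079, minus strand): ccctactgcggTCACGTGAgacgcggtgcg
Atp6v0e (chr17:26676387-26676416, plus strand): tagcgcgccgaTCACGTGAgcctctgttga
Ctsa (chr2:164833749-164833778, plus strand): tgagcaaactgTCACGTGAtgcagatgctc
Ctsd (chr7:142387908-142387937, minus strand): tcgcccgcgtcTCACGTGAcccgttgaggg
The match begins 132 bases before the annotated start in Atp6v1a, 99 before it in Ctsd, 13 before it in Ctsa, 4 before it in Atp6v0d1, and at base 3 after it in Atp6v0e. Ctsa holds a further match at base 5 after its start. Of the members whose level differed between the groups, Ctso has no core in its promoter, and no promoter was found for Atp6v0a2. Ctsf, also among them, has the core alone, 79 bases before its start.
Ctsf (chr19:4855074-4855103, plus strand): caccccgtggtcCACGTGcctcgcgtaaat

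Few of these genes differed between cKO and WT. With edgeR's quasi-likelihood test and an adjusted p under 0.05 over all 16089 genes tested, 2 members rose, 1 fell and 29 did not pass. Over all genes 12.4% were called (5.96% higher and 6.45% lower, 959 and 1038 genes, or 1191 and 764 with upper-quartile scaling), so the 3 of 32 members do not stand above the background. The cathepsins Ctso and Ctsf were higher in cKO and the V0 subunit Atp6v0a2 was lower. The unadjusted p was under 0.05 in 11 of the 32 members (34.4%), near the 29.1% of all genes. DESeq2, which called 16.2% of all genes, added the cathepsins Ctsc and Ctsw as higher and Atp6v1b2, Atp6v1a and Atp6ap1 as lower, which makes 4 higher and 4 lower. DESeq2 was not run without WT 27, and edgeR without it gave 0.26 in Ctsc, 0.47 in Ctsw, -0.24 in Atp6v1b2, -0.16 in Atp6v1a and -0.16 in Atp6ap1, with adjusted p-values of 0.154 to 0.270. None of the 32 passed a test against a fold change of 1.2 (glmTreat, 0 members), which called 112 of the 16089 genes. With 3 libraries per group, not passing does not show that a difference is small. The edgeR confidence interval of the log2 fold change lay on both sides of 0 in Ctsd (-0.21 to 0.18). It reached further from 0 in Atp6v1b2 (-0.69 to -0.06) and in Ctsw (0.19 to 0.93).

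The 2 families leaned to opposite sides by their values. In 16 of the 20 tested V-ATPase genes the log2 fold change (cKO over WT throughout) was below 0, with a median of -0.12, whereas in 8 of the 12 tested cathepsins it was above 0, with a median of 0.18. Over all genes tested, 48.7% lay below 0 and 51.3% above it, and the median was 0.01. The 12 cathepsins include Ctse, which is near the floor. With a filter of a mean CPM of at least 1, the median was 0.13 in 11 cathepsins and -0.13 in 18 V-ATPase genes. Ctsk, left out by the choice of genes, was at -0.25. Of the V-ATPase genes, 5 had all 3 cKO libraries below all 3 WT libraries and 0 had them above, where 17.4% of all genes have the first pattern and 17.2% the second (34.6% for both). Of the cathepsins, 4 had all cKO libraries above and 1 below. WT 27 and cKO 8 were the libraries with the highest and the lowest V-ATPase values. Without both, a choice made after seeing those values and one that by itself moves the median towards 0, the V-ATPase median was 0.01 with 9 of 20 genes below 0. No member was called with the 2 libraries per group that remained (0 of 32, edgeR), though the log2 fold changes were then 0.32 in Ctso, 0.23 in Ctsf and -0.30 in Atp6v0a2. Without WT 27 alone the median was -0.09 (16 of 20 below 0), and without cKO 8 alone -0.09 (14 of 20). The cathepsin median was 0.19 without both. It was smallest, 0.05, without cKO 37, the library low in cartilage genes. Of the 9 cathepsins with at least 5 RPKM, 4 were highest in cKO 37, Ctss, Ctsh and Ctsc among them, and 4 in WT 27. Of 19 tested macrophage and monocyte markers, 9 were highest in cKO 37, 5 in WT 27 and 3 in WT 29. Their sum was 566 CPM in cKO 37, 675 in WT 27 and 589 in WT 29. The part of other cell types in the cathepsin values was not tested.

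**Figure D2:**
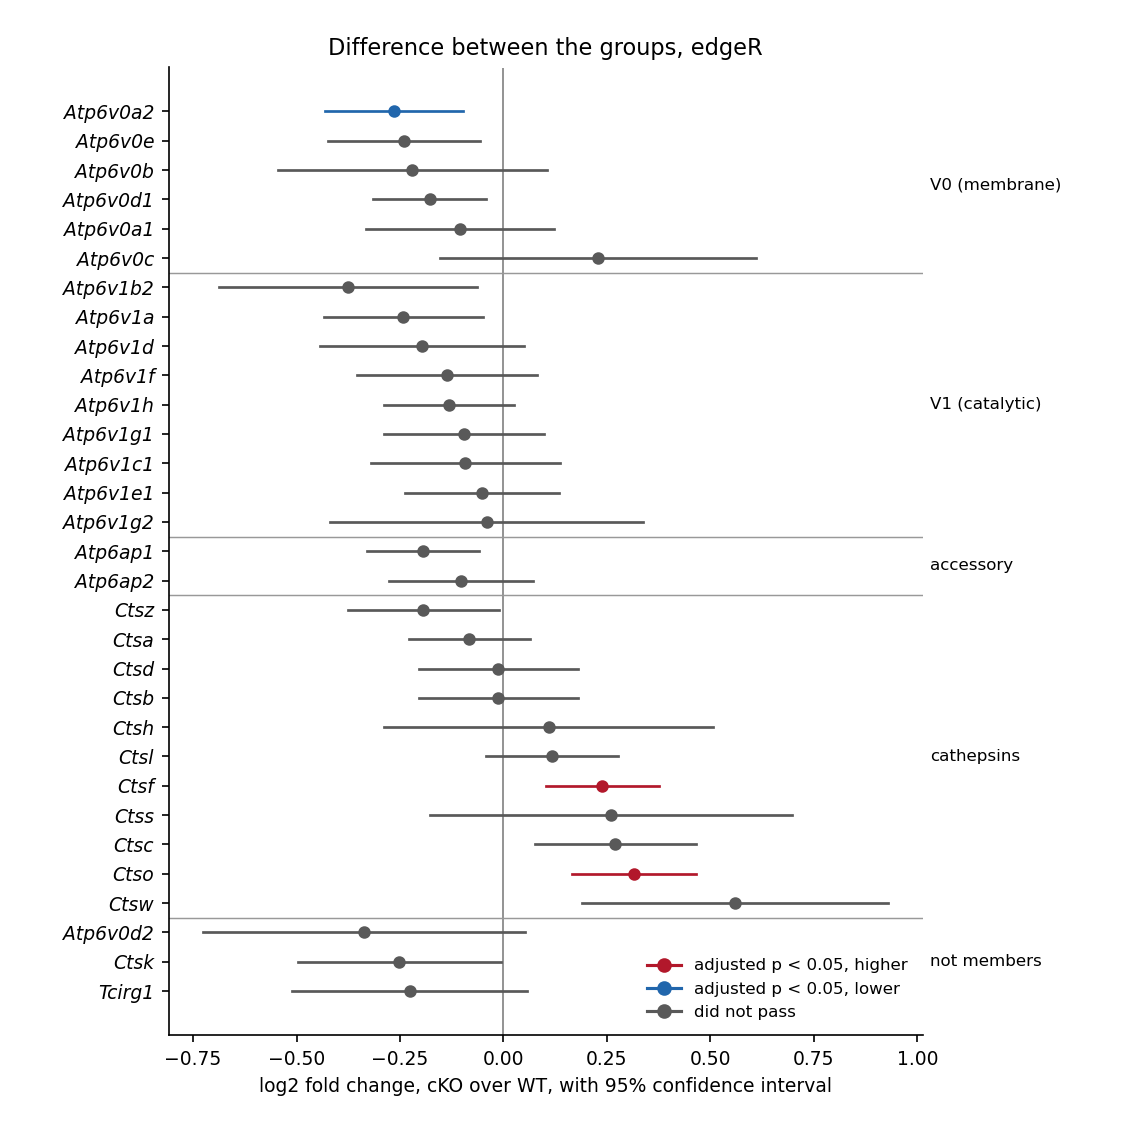
Log2 fold change (cKO over WT, horizontal axis) with its 95% confidence interval from edgeR for members with a mean of at least 1 RPKM and for 3 related genes, grouped by sector. Red marks the 2 genes that passed as higher (Ctso and Ctsf), blue the 1 that passed as lower (Atp6v0a2), and gray those that did not pass. Most V-ATPase intervals include 0 with their centre on the negative side.

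Ctso and Ctsf are cysteine proteases of the papain family with broad expression. Ctso (chromosome 3, 81932616 to 81956725) was at 19.1, 19.2 and 20 CPM in WT 14, 27 and 29 and at 23.7, 23.1 and 25.7 CPM in cKO 8, 10 and 37. All cKO libraries were above all WT libraries, and the WT values lay close together. The mean rose from 19.5 ± 0.487 to 24.2 ± 1.33 CPM (SD, n = 3 per group), 1.24-fold (log2 0.31 ± 0.07, SE, adjusted p = 0.0158, edgeR). The call was kept without WT 27 (0.30, adjusted p = 0.0496), WT 29, cKO 10 or cKO 37, but not without WT 14 (adjusted p = 0.0514) or cKO 8 (0.0573).

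Ctsf (chromosome 19, 4855129 to 4860912) was at 57.8, 57.6 and 53.2 CPM in WT 14, 27 and 29 and at 68.5, 63.3 and 67.2 CPM in cKO 8, 10 and 37. The groups did not overlap, with cKO 10 the lowest of its group. Its mean rose from 56.2 ± 2.64 to 66.3 ± 2.7 CPM, 1.18-fold (log2 0.24 ± 0.06, adjusted p = 0.0311, edgeR). Leaving out cKO 10 or cKO 37 kept the call, and leaving out WT 14, WT 27, WT 29 or cKO 8 ended it (adjusted p = 0.0582, 0.0644, 0.128 and 0.12), with a value of 0.25 without WT 27.

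Ctsw and Ctsc have roles in immune cells, Ctsw in cytotoxic lymphocytes and Ctsc, dipeptidyl peptidase 1, as the activator of granule serine proteases. Ctsw was at 2.35, 1.92 and 2.26 CPM in WT 14, 27 and 29 and at 3.04, 3.77 and 2.83 CPM in cKO 8, 10 and 37. All cKO values were above all WT values at this low level, and the difference of 0.56 ± 0.17 did not pass (adjusted p = 0.0521, edgeR). Ctsc was at 39.7, 42.3 and 45.7 CPM in WT and at 49.9, 46 and 58.1 CPM in cKO, in the same order of libraries. The cKO 10 value lay just above WT 29, and 0.27 ± 0.09 did not pass (adjusted p = 0.0695). Listed lymphocyte and mast cell markers summed to 19.7, 23.3 and 24.8 CPM in WT and 19.6, 17.7 and 27.7 CPM in cKO, with overlapping groups and 0 of 9 tested markers called (edgeR, 0 at an unadjusted p under 0.05). Neutrophil markers summed to between 2.29 and 4.26 CPM over the 6 libraries. The part of these cells in the 2 values was not tested.

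The most abundant cathepsins, Ctsd and Ctsb, did not pass and had log2 fold changes close to 0. Ctsd was 446 ± 45.4 against 442 ± 24.4 CPM in WT and cKO (log2 -0.01, 95% confidence interval -0.21 to 0.18) and Ctsb 606 ± 48 against 601 ± 43.1 CPM (log2 -0.01, -0.20 to 0.18). Ctsl (0.12 ± 0.07, adjusted p = 0.32), Ctsa, the protective protein of lysosomal galactosidase and neuraminidase (-0.08 ± 0.07, adjusted p = 0.453), and the aminopeptidase Ctsh (0.11 ± 0.16, adjusted p = 0.714) did not pass with edgeR. Ctss, a protease of antigen-presenting cells, was at 0.26 ± 0.18 with a wide spread (15.7 to 20.3 CPM in WT and 17.2 to 27.6 in cKO). Ctsz, a carboxypeptidase, was the only cathepsin tested whose cKO libraries all lay below WT: 147, 173 and 149 CPM in WT 14, 27 and 29 against 123, 144 and 143 CPM in cKO 8, 10 and 37. It did not pass (-0.19 ± 0.08, adjusted p = 0.151).

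**Figure D3:**
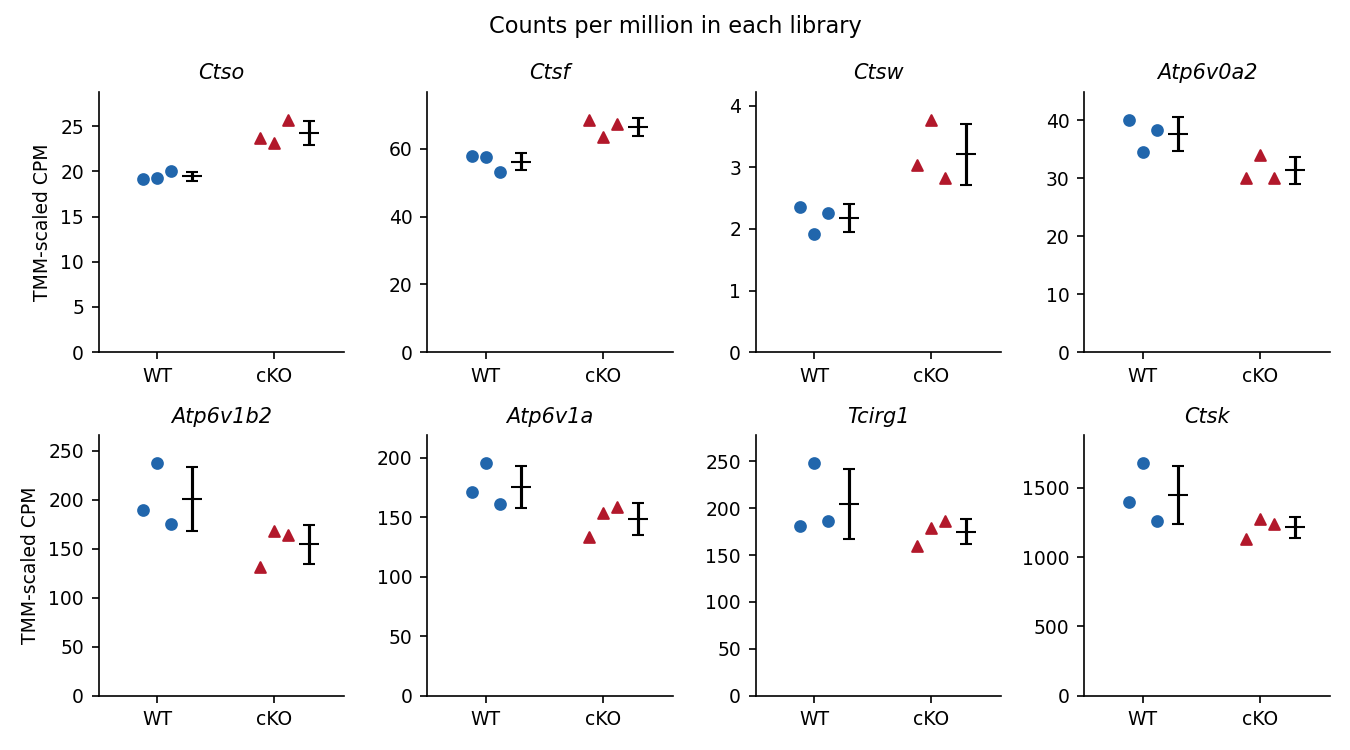
TMM-scaled CPM (vertical axis from 0) of 8 genes in each library (blue circles WT 14, 27 and 29, red triangles cKO 8, 10 and 37, left to right), with the group mean and SD beside the points (n = 3 per group). In Ctso, Ctsf and Ctsw all cKO points lie above WT; in Atp6v0a2, Atp6v1b2 and Atp6v1a they lie below, with cKO 8 the lowest in Atp6v1b2 and Atp6v1a; in Tcirg1 and Ctsk the groups overlap.

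In the V0 sector, 1 of 8 tested genes fell (12.5%, where 12.4% of all genes were called). Atp6v0a2, the a subunit known from Golgi and endosomes, was at 40, 34.5 and 38.3 CPM in WT 14, 27 and 29 and at 30.1, 33.9 and 30 CPM in cKO 8, 10 and 37. The groups did not overlap, but WT 27 and cKO 10 were within 1 CPM of each other. Its mean fell from 37.6 ± 2.86 to 31.3 ± 2.26 CPM (log2 -0.26 ± 0.08, adjusted p = 0.0439, edgeR). It passed when WT 27 (-0.33, adjusted p = 0.0333) or cKO 10 was omitted and did not when WT 14, WT 29, cKO 8 or cKO 37 was (adjusted p = 0.0881 to 0.152), and with limma voom (0.0565) or upper-quartile scaling (0.0601). GENCODE M21 has an antisense gene, 4930404A12Rik, over 150 bases of the counted interval, and the use of strand in counting is not stated.

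The other V0 genes did not pass. Atp6v0d1, the ubiquitous d subunit of the stalk, was at 76.6, 80.4 and 74.1 CPM in WT 14, 27 and 29 and at 64.4, 69.6 and 70.3 CPM in cKO 8, 10 and 37, without overlap (-0.18 ± 0.06, adjusted p = 0.083). Atp6v0e, a small membrane subunit, was at 67, 72.7 and 61.7 CPM in WT and at 51.4, 56.6 and 62.5 CPM in cKO, where cKO 37 lay above WT 29 (-0.24 ± 0.08, adjusted p = 0.0822). Atp6v0b was 84.6 ± 12.8 against 72.6 ± 10.9 CPM (-0.22 ± 0.14, adjusted p = 0.349), and the neuronal and ubiquitous a subunit gene Atp6v0a1 was 52.9 ± 2.83 against 49.3 ± 7.34 CPM (-0.10 ± 0.10, adjusted p = 0.54). Atp6v0c stood on the other side of 0, at 0.23 ± 0.17 (adjusted p = 0.414), within the limits of its counting given above. Atp6v0a4 and Atp6v0e2, both below 1 RPKM, had intervals from -0.54 to 0.91 and from -0.43 to 0.47.

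In the V1 sector none of the 10 tested genes passed with edgeR (0 called, 2 at an unadjusted p under 0.05), and 9 had a log2 fold change below 0. Over all genes 12.4% were called, 29.1% had an unadjusted p under 0.05 and 48.7% lay below 0. The 2 V1 genes, 20% of those tested, thus do not stand above the background. The 2 were the genes of the catalytic head. Atp6v1b2, the widely expressed B subunit, was at 189, 237 and 175 CPM in WT 14, 27 and 29 and at 132, 168 and 164 CPM in cKO 8, 10 and 37. All cKO libraries were below WT, but the distance between WT 29 and cKO 10 was small against the spread within WT. Its difference was -0.38 ± 0.13 (95% confidence interval -0.69 to -0.06, adjusted p = 0.111, edgeR), and DESeq2 gave -0.38 with an adjusted p of 0.0123. Atp6v1a, the A subunit that binds and splits ATP, was at 171, 195 and 161 CPM in WT and at 133, 153 and 159 CPM in cKO, with cKO 37 just below WT 29. It was at -0.24 ± 0.09 (adjusted p = 0.0929, edgeR) and -0.24 with DESeq2 (adjusted p = 0.0497). Without both WT 27 and cKO 8, Atp6v1b2 was at -0.13 and Atp6v1a at -0.09.

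Subunits of the V1 stalks and of the regulatory H subunit were closer to 0. The central stalk genes Atp6v1d and Atp6v1f were at -0.20 ± 0.11 and -0.14 ± 0.10, and the peripheral stalk genes Atp6v1g1, Atp6v1c1 and Atp6v1e1 at -0.10 ± 0.09, -0.09 ± 0.10 and -0.05 ± 0.08. Atp6v1h, which silences the ATPase of a detached V1, was at -0.13 ± 0.07. Their adjusted p-values ran from 0.248 in Atp6v1h to 0.726 in Atp6v1e1 (edgeR). The neuronal G subunit gene Atp6v1g2, at 2.55 ± 0.458 against 2.48 ± 0.0957 CPM, was at -0.04 ± 0.17.

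Accessory proteins of the pump are encoded on the X chromosome by Atp6ap1 (Ac45) and Atp6ap2 (the prorenin receptor). Atp6ap1 was at 185, 192 and 173 CPM in WT 14, 27 and 29 and at 158, 164 and 158 CPM in cKO 8, 10 and 37, without overlap. Its difference of -0.19 ± 0.06 did not pass with edgeR (adjusted p = 0.0618) and passed with DESeq2 (0.027). WT 27, the library low in Xist, was the highest of the 6. Atp6ap2 was 76.9 ± 6.61 against 71.6 ± 5.79 CPM (-0.10 ± 0.08, adjusted p = 0.432), again with WT 27 the highest. Atp6ap1l had 2 to 4 counts per library.

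Isoform use within a subunit was measured as the share of the summed RPKM of its genes in each library, which does not depend on the library total. Tcirg1, the a3 subunit, held 61.1%, 70.7% and 62% of the V0 a transcripts in WT 14, 27 and 29 and 62.2%, 62.9% and 68.2% in cKO 8, 10 and 37. The groups overlapped, and WT 27 and cKO 37 were the highest. Atp6v0a2 held 21.2 ± 3.45% in WT and 20.3 ± 0.896% in cKO, on the short gene length given above, and Atp6v0a1 held 13.9 ± 1.92% and 14.9 ± 2.33%. Atp6v0d2, the d subunit of osteoclasts, held 42 ± 3.7% of the V0 d transcripts in WT and 39.5 ± 2.3% in cKO. Exact two-sided permutation tests of 6 shares gave p from 0.4 to 1 (0.96 to 1 after Benjamini-Hochberg adjustment), where 3 libraries against 3 cannot go below 0.1. Atp6v1b2, Atp6v1c1, Atp6v1e1, Atp6v0e and Atp6v1g1 each held at least 97% of their families in every group mean, from 97.8% for Atp6v1g1 to 100% for Atp6v1e1.

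**Figure D4:**
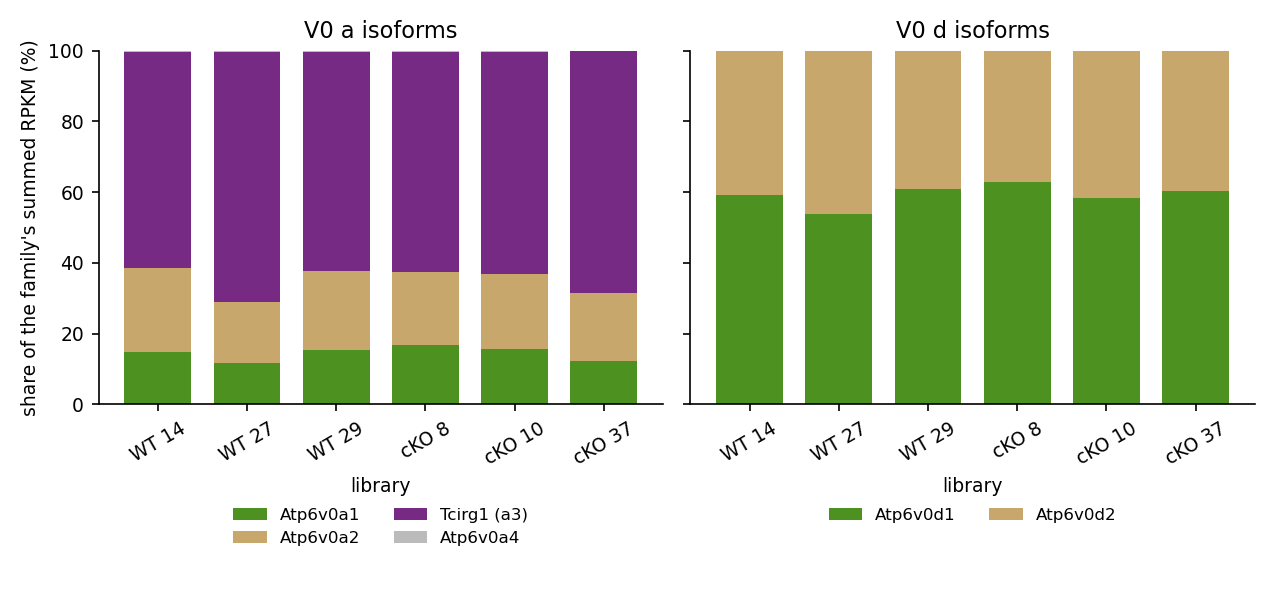
Share of each isoform in the summed RPKM of its subunit family (vertical axis, percent) in each library (bars), for the a subunits (left) and d subunits (right) of V0. Tcirg1 holds 61.1% to 70.7% of the a subunit transcripts and Atp6v0d2 37.2% to 46.2% of the d subunit transcripts, with WT and cKO overlapping and WT 27 the highest in both.

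The V-ATPase genes shared an order of libraries. For each of the 16 V-ATPase genes with at least 5 RPKM, log2 CPM was centred on its mean over the 6 libraries. The median of these was 0.05, 0.19 and -0.02 in WT 14, 27 and 29 and -0.18, -0.06 and 0.01 in cKO 8, 10 and 37. WT 27 was the highest library for 13 of the 16 genes and cKO 8 the lowest for 13. WT 29 and cKO 37 lay side by side. The 9 cathepsins with at least 5 RPKM did not have this order, with medians of -0.07, 0.03 and -0.05 in WT and 0.03, -0.02 and 0.14 in cKO, and cKO 37 the highest for 4 and WT 27 for another 4.

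**Figure D5:**
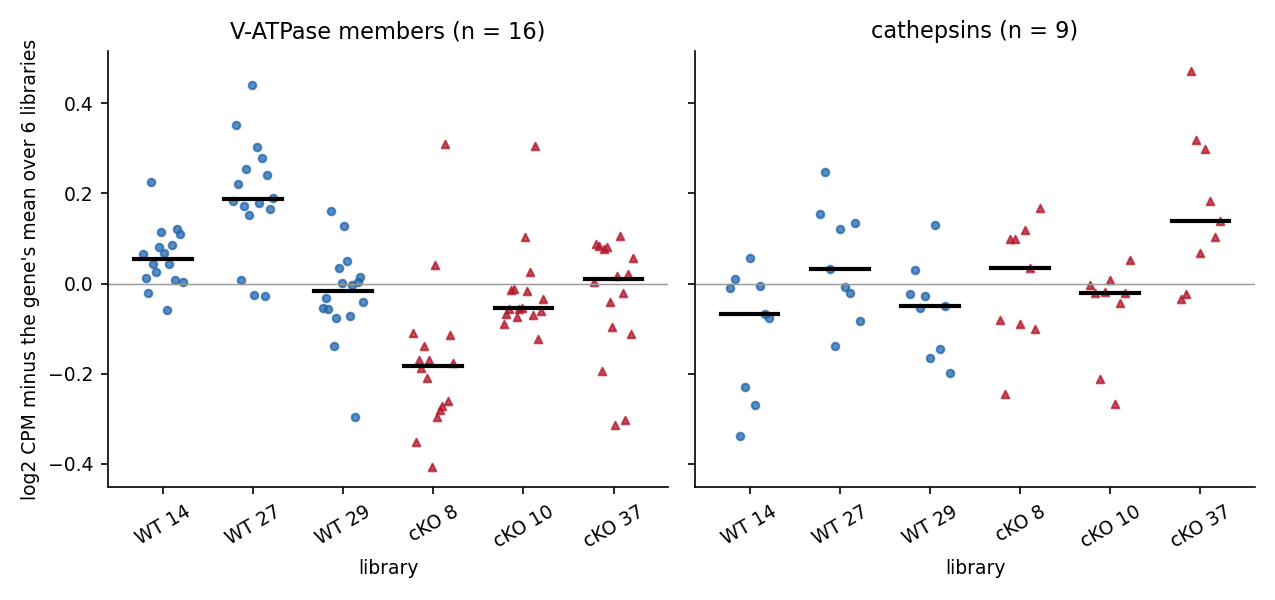
Log2 CPM of each gene minus its mean over the 6 libraries (vertical axis) in each library, for the V-ATPase members (left, n = 16) and cathepsins (right, n = 9) with at least 5 RPKM (points: blue circles WT, red triangles cKO; black bars: medians). V-ATPase genes are highest in WT 27 (median 0.19) and lowest in cKO 8 (median -0.18), while in the cathepsins cKO 37 has the highest median (0.14).

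Among osteoclast markers WT 27 was the highest library for 12 of 12 and cKO 8 the lowest for 10, with Mmp9 lowest in cKO 37 and Oscar in cKO 10. The summed level of 12 listed osteoclast markers was 3690, 4618 and 3273 CPM in WT 14, 27 and 29 and 2648, 3316 and 2797 CPM in cKO 8, 10 and 37, with cKO 10 above WT 29, and most of it came from Ctsk, Mmp9 and Acp5. All 12 had a log2 fold change below 0 (median -0.44), where 48.7% of all genes lay below it. The unadjusted p was under 0.05 in 8 of them (66.7%, edgeR), against 29.1% of all genes. Called were 2 (16.7%, near the 12.4% of all genes), the phosphatase Acp5 (-0.56 ± 0.12, adjusted p = 0.0172, edgeR) and the transcription factor Nfatc1 (-0.48 ± 0.08, adjusted p = 0.00705). Acp5 was not called without cKO 8 or cKO 37 (highest adjusted p = 0.0743), whereas Nfatc1 passed without any single library (highest adjusted p = 0.041). Without WT 27, Acp5 was at -0.41 (adjusted p = 0.0280) and Nfatc1 at -0.39 (0.0177). Without both WT 27 and cKO 8 they were at -0.34 and -0.33 and did not pass (0.126 and 0.0891). The list includes Ctsk and Atp6v0d2. Macrophage and monocyte markers summed to 554, 675 and 589 CPM in WT and 501, 479 and 566 CPM in cKO, with a median of -0.01 and 8 of 19 above 0. Only Csf1r, the largest part of that sum, was called (-0.43 ± 0.10, adjusted p = 0.0191, edgeR, -0.30 without WT 27, lost without cKO 8 or cKO 37). Markers that did not pass lay on both sides of 0. Cd68 was at -0.48 ± 0.16 (adjusted p = 0.107, edgeR) and Tyrobp at -0.38 ± 0.14 (0.120), while Mpeg1 was at 0.41 ± 0.16 (0.137) and Fcgr1 at 0.33 ± 0.18 (0.261). In bulk tissue, fewer cells of a type and less RNA per cell cannot be told apart, and the part of osteoclasts in the V-ATPase values was not tested.

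The 3 osteoclast-linked genes that complete the pump and its protease followed the same libraries and did not pass. Tcirg1 was at 181, 248 and 186 CPM in WT 14, 27 and 29 and at 160, 179 and 186 CPM in cKO 8, 10 and 37 (-0.23 ± 0.12, adjusted p = 0.27, edgeR). Apart from WT 27 and cKO 8 the other 4 libraries lay between 179 and 186 CPM. Atp6v0d2 was at 82.2, 107 and 73.4 CPM in WT and at 59, 77.3 and 71.4 CPM in cKO (-0.34 ± 0.16, adjusted p = 0.231). Ctsk was at 1398, 1676 and 1264 CPM in WT and at 1130, 1277 and 1238 CPM in cKO (-0.25 ± 0.11, adjusted p = 0.162). In all 3 genes WT 27 was the highest library and cKO 8 the lowest.

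Other genes of the lysosome were read from lists of its known parts, whose counts stand beside the 12.4% of all genes called. Among 12 tested genes of V-ATPase assembly and regulation outside the members, 3 fell and 0 rose: Rnasek, a small membrane protein associated with the pump (-0.36 ± 0.07, adjusted p = 0.0105, edgeR), and Rogdi and Wdr7 of the complex that reassembles V1 and V0 (-0.36 ± 0.09 and -0.24 ± 0.07, adjusted p = 0.0307 and 0.0475). The list median was -0.08. Rnasek passed without any single library (highest adjusted p = 0.0386). Rogdi and Wdr7 were lost without any library but cKO 10 (highest adjusted p = 0.107 and 0.174), Rogdi also with an offset for GC content and length (0.0687) and Wdr7 with upper-quartile scaling (0.0671) or limma voom (0.0551).

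Of 39 lysosomal hydrolases and their partners, 5 fell and 0 rose (12.8%), with a median of -0.09. Arsb, arylsulfatase B, was at 219 ± 24.9 against 162 ± 20 CPM (-0.44 ± 0.10, adjusted p = 0.0254, edgeR). The hexosaminidase gene Hexa (-0.31 ± 0.08), the galactosidase gene Glb1 (-0.26 ± 0.07) and Gnptab, which makes the mannose 6-phosphate tag of lysosomal enzymes (-0.29 ± 0.08), had adjusted p-values of 0.031, 0.0377 and 0.0435. The fifth was the sphingomyelinase gene Smpd1 (-0.21 ± 0.06, adjusted p = 0.0465), which was lost without any of the 6 libraries (adjusted p = 0.0705 to 0.126). Arsb, Hexa, Glb1 and Gnptab were each lost without WT 27, cKO 8 or cKO 37, Hexa and Glb1 also without WT 29, and Gnptab without WT 14 (highest adjusted p = 0.156). Upper-quartile scaling ended the calls of Glb1 (0.0550), Gnptab (0.0617) and Smpd1 (0.0763), limma voom those of Gnptab (0.0563) and Smpd1 (0.0528), and the GC and length offset that of Smpd1 (0.0772). Of 22 lysosomal membrane proteins and sorting receptors, 1 fell and 0 rose (median 0.04): Laptm5, which is expressed in blood cells (-0.57 ± 0.12, adjusted p = 0.0209, lost without WT 29, cKO 8 or cKO 37).

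Of 20 tested TFE factors and genes of mTORC1 signalling on the lysosome, 4 rose, 2 fell and 14 did not pass (median -0.05). Flcn, folliculin, an activator of RagC and RagD, rose from 37.1 ± 1.29 to 52.1 ± 3.66 CPM (0.49 ± 0.07, adjusted p = 0.00244, edgeR), a call kept without any single library (highest adjusted p = 0.0167) and without both WT 27 and cKO 8 (0.0361). Its partner Fnip1 (0.23 ± 0.06), the lysosomal arginine sensor Slc38a9 (0.38 ± 0.08) and the GTPase gene Rragd (0.45 ± 0.12) had adjusted p-values of 0.0337, 0.0136 and 0.0403. Tfeb, a main activator of V-ATPase and cathepsin genes, fell from 15.4 ± 0.403 to 12.6 ± 0.449 CPM (-0.29 ± 0.08, adjusted p = 0.0332), and Rraga, another Rag GTPase gene, fell by 0.24 ± 0.06 (adjusted p = 0.0211). Slc38a9 was lost without WT 29 or cKO 8, Fnip1 without any library but cKO 10 or cKO 37, Rragd without any but WT 27, and Tfeb and Rraga without any but cKO 37 (highest adjusted p over these 5 genes 0.128, in Rragd). With the GC and length offset, added after seeing the data, Fnip1 was at 0.10 (adjusted p = 0.263), Tfeb at -0.18 (0.152) and Rragd at 0.38 (0.0788), and none of the 3 passed.

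Of 9 tested cathepsin inhibitors, 1 rose and 0 fell (median 0.12). Ctla2a, a mouse gene related to the propeptide of cathepsin L, was at 12.2 ± 0.829 against 15.2 ± 0.449 CPM (0.31 ± 0.08, adjusted p = 0.0338, edgeR), and was lost without any library but WT 14, as well as under the offset for GC and length (0.0691). In the marker lists of other cell types, 2 of 12 osteoblast and bone matrix genes passed (Mepe, 0.40 ± 0.10, and Sp7, -0.37 ± 0.09) and 1 of 15 genes of endothelium, cartilage, muscle, neurons, epidermis and red cells (Tubb3, a tubulin of neurons, -0.77 ± 0.16). Mepe kept its call when WT 14 or cKO 8 was omitted but not otherwise, Sp7 was lost without WT 29 or any cKO library and when GC content and length were offset (0.0551), and Tubb3 without WT 29 (adjusted p = 0.0582) but not without both WT 27 and cKO 8 (0.0181).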

How the data were processed

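Total RNA of calvaria was sequenced by the authors and, per the submitters' processing notes, processed with bcl2fastq, TopHat2 2.0.6 and HTSeq on mm10. Alignment settings, the annotation and whether strand was used were not given in the sources used. The deposited count values are read counts per gene, used for all tests. All are even (0 odd counts), so 1 counted unit adds 2. The RPKM values deposited by the authors equal the counts divided by gene length and a library total, and were used for levels and isoform shares.

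Counts were tested in R 4.3.3 with edgeR 4.0.16 (filterByExpr with a minimum count of 10, TMM factors of 0.952 to 1.07, robust quasi-likelihood F test, Benjamini-Hochberg adjustment over 16089 genes, threshold 0.05). Intervals cover 95%. Means and SDs are of TMM-scaled CPM. The steps were tested on simulated data. Alternatives were RLE and upper-quartile scaling, other filters, DESeq2 1.42.0, limma voom 3.58.1, a threshold of 0.1, glmTreat at 1.2-fold, halved counts and omission of each library. A GC and length offset, removal of Rn45s and omission of WT 27 with cKO 8 were added after seeing the data.

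The genes and lists were chosen with earlier results of these data known. Named are all called members, other members of at least 1 RPKM by value or range, Ctsk, Ctsg, Atp6v0d2 and Tcirg1, and up to 4 called genes per list with the smallest p. Smpd1, the fifth of its list, Rragd and Fnip1, and the uncalled markers Cd68, Tyrobp, Mpeg1 and Fcgr1 were named after their values were seen.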

Additional observations from a re-analysis of the deposited data

How the results depend on the processing

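Of 31 genes (28 members, Ctsk, Atp6v0d2 and Tcirg1), 19 kept their sign under all 18 alternatives and 12 changed it in at least 1, none of them called in any fit. The threshold of 0.1 and glmTreat reuse the log2 fold changes of the main fit and could not change a sign. The number of called genes was 586 to 1985 without 1 library, 200 without WT 27 and cKO 8, 112 with glmTreat and 3277 at a threshold of 0.1, and upper-quartile scaling divided it into 1191 higher and 764 lower against 959 and 1038. Members higher were 0 to 4 without 1 library, 4 with DESeq2, 4 at a threshold of 0.1, 0 with glmTreat and 0 without WT 27 and cKO 8. Members lower were 0 to 1 without 1 library, 4 with DESeq2, 5 at a threshold of 0.1, 2 with the GC and length offset, and 0 with upper-quartile scaling, limma voom, glmTreat or without WT 27 and cKO 8. Called genes of the other lists, 22 in all, were 5 to 17 without 1 library, 38 at a threshold of 0.1, 0 with glmTreat and 2 without WT 27 and cKO 8. The cause was not tested.

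Signs turned in several genes, Atp6v0b and Atp6v1d among them (-0.22 and -0.20 with all libraries). Without WT 27 and cKO 8 the log2 fold change was 0.0214 in Atp6v0b, 0.0545 in Atp6v1g1, 0.0773 in Atp6v1e1, 0.0293 in Atp6v1f, 0.0881 in Ctsd, 0.00298 in Atp6v1d, 0.10 in Ctsb, 0.0804 in Atp6v1c1, 0.10 in Atp6v1g2 and 0.0297 in Atp6ap2. Upper-quartile scaling gave 0.0142 in Ctsd and 0.0145 in Ctsb, and the GC and length offset 0.0320 in Ctsd, 0.00398 in Ctsb and 0.0123 in Atp6v1g2. Without 1 library the ranges were -0.19 to 0.0101 in Atp6v0a1, -0.17 to 0.0134 in Atp6v1c1, -0.13 to 0.0179 in Atp6v1e1, -0.17 to 0.0688 in Atp6v1g2, -0.0729 to 0.0502 in Ctsb, -0.0934 to 0.0420 in Ctsd and -0.0262 to 0.24 in Ctsh. Differences in isoform share (cKO minus WT, percentage points) ranged from -0.0869 to 2.33 for Atp6v0a1, -2.87 to 0.40 for Atp6v0a2, -2.09 to 2.85 for Tcirg1 and -0.0683 to 0.22 for Atp6v1g2. No paired analysis was run, because the labels do not say whether libraries of the 2 groups were paired.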
